A study of Oryctolagus cuniculus with 3 samples.

Results

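Aortic media of rabbits carrying a mouse PGC-1alpha transgene and fed a high-cholesterol diet was compared with aortic media of non-transgenic rabbits on chow, gene by gene. The comparison took every rabbit gene whose mean over the 3 libraries of the series was at least 1 FPKM (fragments per kilobase of transcript and per mapped library size, a level corrected for gene length), which gave 11597 of 15248 rabbit genes. It uses 2 of the 3 libraries. The difference of a gene is log2(FPKM + 1) in the transgenic library minus log2(FPKM + 1) in the chow library, and a gene is counted as higher or lower at 2-fold on this scale, a difference of at least 1 in size. The 3rd library enters the filter and is shown beside the other 2.

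The chow group was of control genotype and ate chow. The transgenic group carried a mouse PGC-1alpha gene and ate a diet high in cholesterol for 20 weeks, and the 3rd group, of control genotype, ate the same diet for the same time. All rabbits were 9-month-old males of strain JW/CSK, and all 3 libraries were made from the aortic media, the muscular middle layer of the artery, with the RNA of 5 rabbits pooled in each. The sources used here do not give the promoter that drives the transgene. Transgenic rabbits on chow were not analysed here, so diet and genotype differ together and their parts in a difference cannot be told apart. The labels also place the chow library on sequencing lane L3 and both cholesterol libraries on lane L2, so lane and diet cannot be told apart either. There is 1 library per group, hence no replicate error, no test and no p-value, and no difference given here has a replicate check.

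Cholesterol feeding in rabbits produces atherosclerotic lesions, in which monocytes enter the vessel wall, take up lipoprotein cholesterol, become foam cells and digest the load in their lysosomes. Smooth muscle cells of the media lose contractile proteins in such lesions, divide and make collagen and other matrix. PGC-1alpha does not bind DNA itself but coactivates transcription of mitochondrial and oxidative genes through nuclear receptors and NRF1, which in turn raises the mitochondrial factor TFAM. The values below show which transcripts of the lesion were present in the transgenic media, and at what level.

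Values are FPKM in the order chow, non-transgenic cholesterol and transgenic cholesterol library. Mouse Ppargc1a was listed at 0, 0 and 12.8 FPKM, as the labels have it. The rabbit's own PPARGC1A (chromosome 2, 14399464 to 14502163 in OryCun2.0, the build named in the submitters' processing notes and used for all rabbit coordinates here) stood at 1.18, 1.76 and 2.29 FPKM, a difference of 0.59. The 3 libraries listed 13641, 14113 and 14087 rabbit genes above 0, with summed FPKM of 943181, 903706 and 824447. The absolute depth is unknown. Low values stand in whole-number ratios that would place the transgenic library at 1.25 times the fragments of the chow library. That reading holds only if the libraries were not scaled to each other, which is unknown. The tissue label was checked against markers. The chow library was rich in smooth muscle transcripts: ACTA2 was at 12462 FPKM, MYH11 at 6284 and TAGLN at 7860.5. Endothelial PECAM1 stood there at 22.7 FPKM and macrophage CD68 at 3.56.

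Over the 11597 genes, 1457 were at least 2-fold higher in the transgenic cholesterol library than in the chow library (12.6%) and 293 were at least 2-fold lower (2.53%). The same counts for the non-transgenic cholesterol library against chow were 1846 (15.9%) and 811 (6.99%). Both comparisons use the same chow library, so they are not independent and their values are only set side by side here. At 4-fold, 599 genes were higher and 58 lower in the transgenic library, against 829 and 85 in the non-transgenic cholesterol library. At 32-fold, 61 genes were higher and 18 lower in the transgenic library. The median difference was 0.01, and 90% of the genes lay between -0.79 and 2.03, so the distribution had a long arm toward higher values. The genes just inside the filter were KY, EXD1 and C17orf80, at a mean of 1.000456, 1.001702 and 1.001792 FPKM, and those just outside were APBA2, ACTRT3 and NACA2, at 0.999718, 0.9996317 and 0.997776.

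**Figure D1:**
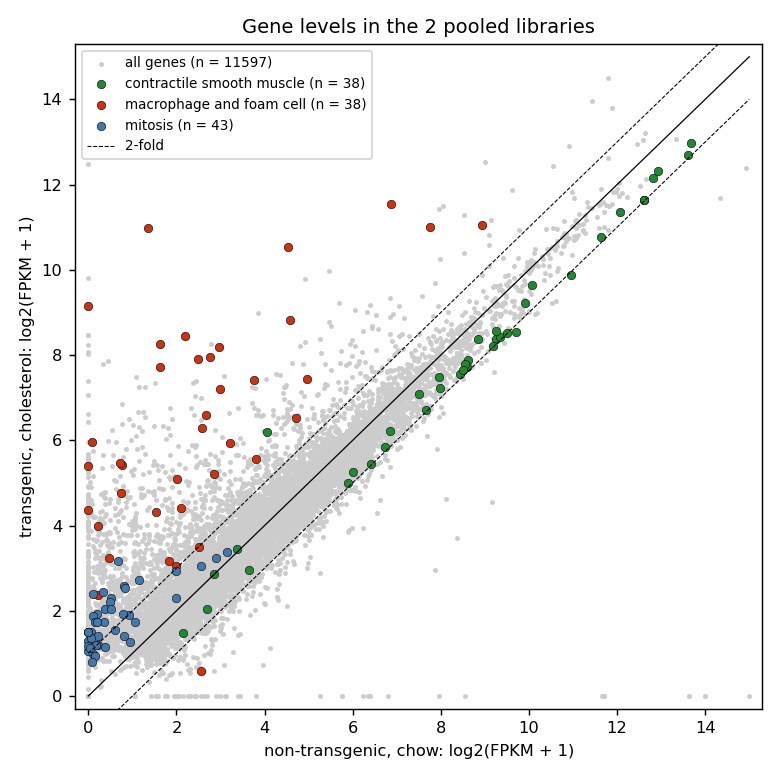
Level of each of 11597 genes on chow (horizontal axis) and in the transgenic cholesterol library (vertical axis), both as log2(FPKM + 1), with 38 contractile smooth muscle, 38 macrophage and foam cell and 43 mitosis genes marked. Most macrophage genes lie far above the diagonal, most contractile genes lie just below it at high levels, and most mitosis genes start near 0 on chow and end at a few FPKM.

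To describe the lesion by role, 46 lists of genes were used, 11 of cell type markers and 35 of pathways, covering 1080 of the measured genes. The median difference was at least 1 in 18 of the 46 lists and at most -1 in none. Macrophage, myeloid, NADPH oxidase, neutrophil and cathepsin genes had the highest medians, and contractile smooth muscle the lowest. Nothing is read from the neutrophil median, since its 3 measured genes, of 10 rows found, were at 0 on chow and passed the filter only through the cholesterol libraries. Any other gene below 1 FPKM on chow also passed only through those libraries. In lists that hold such genes, the count of higher genes is in part set by the filter. The lists hold 344 of the 1457 genes that were at least 2-fold higher and 32 of the 293 that were lower, and 58 genes belong to more than 1 list. In bulk tissue a lower transcript can mean fewer cells of a type or less RNA per cell, and these cannot be told apart.

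**Figure D2:**
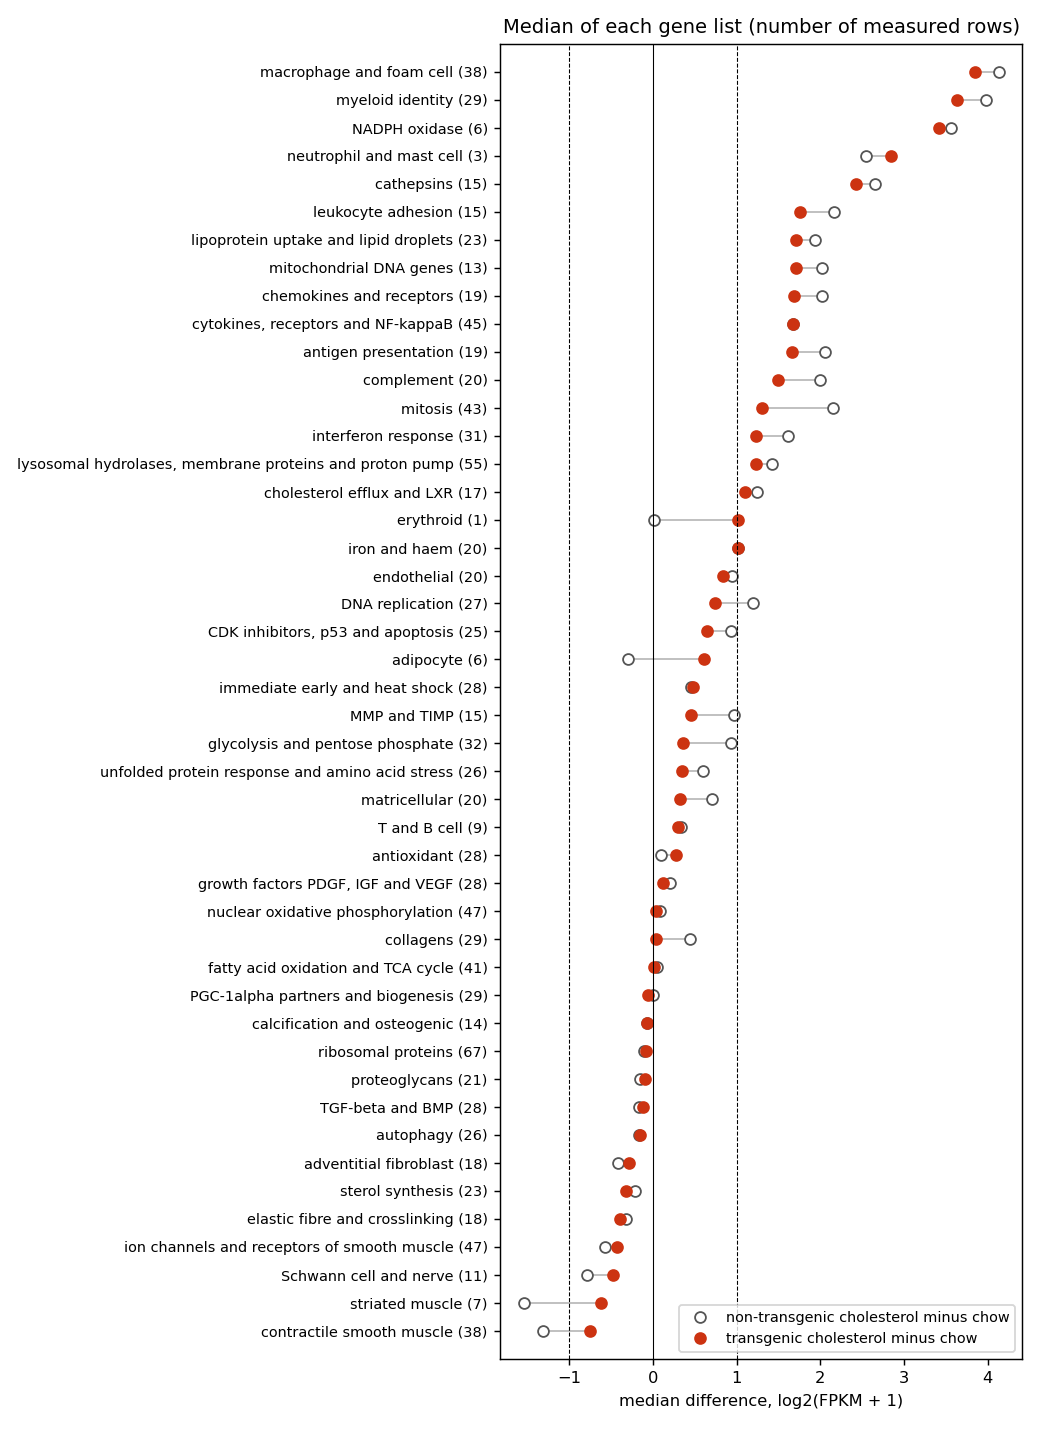
Median difference of each of 46 gene lists from chow, as log2(FPKM + 1), in the transgenic cholesterol library (filled) and the non-transgenic cholesterol library (open), with the number of measured genes in brackets and dashed lines at 2-fold. The macrophage list reaches 3.84 and 4.13 and the contractile list -0.76 and -1.31. Both series share the chow library.

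Transcripts of macrophages and foam cells were abundant in the transgenic media and mostly low on chow. Of 38 measured markers 36 were at least 2-fold higher and 1 was lower, with a median difference of 3.84, where 12.6% and 2.53% of all genes were called. The same median was 4.13 in the non-transgenic cholesterol library. Summed, the markers made up 0.109% of the FPKM of the chow library, 1.89% of the non-transgenic and 1.77% of the transgenic cholesterol library.

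GPNMB, a membrane glycoprotein of lipid-laden macrophages (chromosome 10, 8328034 to 8362824), had the largest difference among genes above 0 in both libraries compared. It stood at 1.54, 2034 and 2009.8 FPKM, a difference of 9.63. Its level in the transgenic library was within 2% of that in the non-transgenic cholesterol library. TREM2, a receptor by which myeloid cells sense lipid (chromosome 12, 30912169 to 30918630), stood at 2.10, 393 and 305 FPKM. CD68, a lysosomal glycoprotein that marks macrophages (chromosome 19, 11598641 to 11600423), was at 3.56, 434 and 348 FPKM, and ITGB2, the beta chain of the leukocyte integrins (scaffold GL019419, 5423 to 21550), at 2.09, 276 and 209.6 FPKM. These 3 genes were low on chow and high in both cholesterol libraries, with the transgenic library below the non-transgenic one.

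SPP1, osteopontin, a secreted phosphoprotein of foam cells (chromosome 15, 62156546 to 62163822), stood at 22.1, 1740.3 and 1493 FPKM, and CHIT1, the chitinase of lipid-loaded macrophages (chromosome 16, 68560131 to 68570017), at 0.0674, 84.98 and 60.9 FPKM. The macrophage elastase MMP12, located on chromosome 1, 113690095 to 113701956, had a 0 on chow and stood at 1137 FPKM in the non-transgenic and 569 FPKM in the transgenic cholesterol library. The MMP12 level in the transgenic library was well below that in the non-transgenic cholesterol library. The scavenger receptor MSR1, which takes up modified lipoprotein, was at 0.376, 33.7 and 8.44 FPKM. It was above chow in both cholesterol libraries and lower in the transgenic library of the pair. Another scavenger receptor, CD36, stood at 3.05, 45.2 and 33.4 FPKM.

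The 3 chains of complement C1q, made by tissue macrophages, had another order. C1QA stood at 3.28, 10.6 and 20.2 FPKM, C1QB at 5.39, 27.1 and 96.00 and C1QC at 22.98, 167 and 449.6. All 3 were highest in the transgenic library. CD163, the haemoglobin scavenger receptor of resident macrophages, was at 2.54, 6.91 and 7.92 FPKM, SIGLEC1 at 2.99, 5.68 and 7.23 and the mannose receptor MRC1 at 4.67, 9.35 and 10.2. These resident-type markers were a few FPKM in every library and highest in the transgenic one, and MRC1 did not reach 2-fold once the pseudocount was added. The member that was lower was LYZ, lysozyme, at 4.90, 5.88 and 0.504 FPKM.

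The regulators and signalling proteins that myeloid cells need were higher as well, with a median difference of 3.63 (3.98 in the non-transgenic cholesterol library). At 2-fold 28 of 29 were higher (96.6%, against 12.6% of all genes) and none lower. The gene below 2-fold was CEBPB, at 16.1, 24.9 and 26.9 FPKM. SPI1, which encodes the macrophage master factor PU.1, was listed at 0 on chow and stood at 46.7 and 28.9 FPKM in the cholesterol libraries. Of the interferon regulatory factors, IRF5 stood at 1.31, 105 and 73.1 FPKM and IRF8 at 1.05, 43.5 and 39.4 FPKM. Both were at about 1 FPKM on chow. The actin bundling protein LCP1 stood at 5.88, 513 and 304 FPKM, the lysosomal leukocyte protein LAPTM5 at 13.4, 681 and 505 and the growth factor receptor chain CSF2RA at 1.19, 109.7 and 99.9. CSF1, the growth factor that sustains macrophages, stood at 26.1, 112 and 73.9 FPKM and its receptor CSF1R at 8.30, 83.7 and 59.9 FPKM. CSF1 had the highest chow level of the genes of this group.

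**Figure D3:**
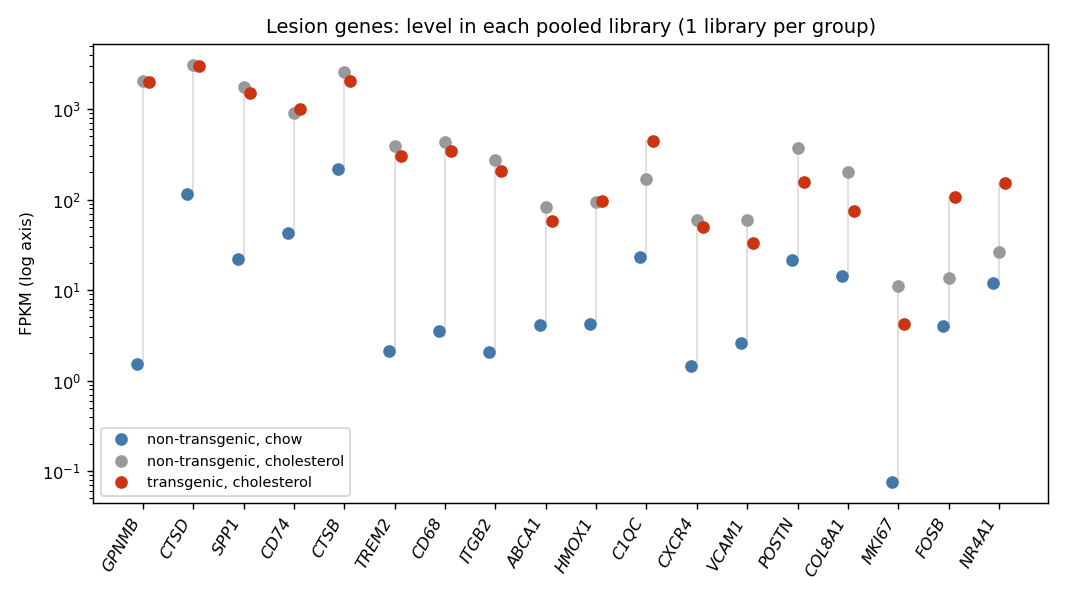
Level (FPKM, log axis) of 18 lesion genes in the 3 pooled libraries, 1 point per library. GPNMB, CTSD, SPP1 and CD74 reach about the same level in both cholesterol libraries, POSTN (21.4, 371 and 156), COL8A1 (14.5, 199.6 and 73.9) and MKI67 (0.0758, 11.2 and 4.23) lie between chow and the non-transgenic cholesterol library, and C1QC, FOSB (4.01, 13.7 and 108) and NR4A1 (12.1, 26.6 and 152) are highest in the transgenic library.

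Lysosomal transcripts, which serve the digestion of engulfed lipoprotein, were higher in transgenic media as a group, with cathepsins in front. Of 55 genes of lysosomal hydrolases, membrane proteins and the proton pump, 30 were at least 2-fold higher (54.5%, against 12.6% of all genes) and 0 lower, with a median of 1.23. Of 15 cathepsins and their inhibitors 12 were higher (80%) and 0 lower, with a median of 2.42. The same medians were 1.42 and 2.65 in the non-transgenic cholesterol library.

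The aspartic protease CTSD (scaffold GL019645, 1379 to 9770) stood at 115, 3080.0 and 2986 FPKM, and the cysteine protease CTSB at 216, 2549.9 and 2040.0 FPKM. CTSS, which also trims the invariant chain in antigen presentation, was at 6.86, 335 and 293 FPKM, and CTSV at 26.9, 466 and 298 FPKM. The collagenolytic CTSK, abundant on chow already, was at 491, 2764 and 2111 FPKM. In these 5 proteases the transgenic library lay below the non-transgenic cholesterol library and far above chow. CTSE, an aspartic protease of immune cells, differed more between the cholesterol libraries, at 0.0692, 118 and 35.1 FPKM. CTSF stood at 91.7, 103 and 88.7 FPKM and CTSO at 12.4, 10.4 and 13.3, so these 2 cathepsins did not reach 2-fold.

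ATP6V0D2, a subunit of the proton pump that is typical of macrophages and osteoclasts (chromosome 3, 101581452 to 101636320), stood at 1.45, 261 and 152 FPKM. Of the broadly expressed subunits, ATP6V1A stood at 10.5, 62.3 and 47.5 FPKM and ATP6V1E1 at 116, 167 and 159 FPKM. The subunits of the pump thus spanned differences from 0.46 to 5.97. LIPA, the acid lipase that hydrolyses lipoprotein cholesteryl ester (chromosome 18, 37157993 to 37198652), was at 29.1, 300.0 and 316 FPKM. Of the hydrolases, HEXA stood at 50.5, 575 and 592 FPKM and GUSB at 18.2, 245 and 189 FPKM, and PSAP, the precursor of the saposins that activate sphingolipid hydrolysis, at 564, 2198 and 2297 FPKM. NPC2, which moves cholesterol out of the lysosome, was at 119.9, 566 and 499 FPKM and its membrane partner NPC1, just short of 2-fold with the pseudocount, at 24.3, 57.1 and 49.5 FPKM. LIPA, HEXA and PSAP were highest in the transgenic library, by small margins. Of the transcription factors of lysosomal genes, TFEB stood at 14.8, 16.3 and 16.97 FPKM and TFE3 at 29.6, 31.9 and 29.6 FPKM, near their chow level, and TFEC, their macrophage relative, at 0.106, 7.001 and 5.25 FPKM.

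Genes of lipoprotein uptake and lipid droplets were also higher, with a median of 1.71 (1.94 in the non-transgenic cholesterol library). At 2-fold 14 of 23 were higher (60.9%, against 12.6% of all genes) and 1 lower (4.35%, against 2.53%). FABP5, a cytosolic fatty acid carrier (chromosome 3, 96996074 to 97001169), stood at 4.62, 325 and 239 FPKM. PLA2G7, the lipoprotein-associated phospholipase, was at 6.97, 141 and 147 FPKM, and the VLDL receptor VLDLR at 2.34, 43.6 and 37.4 FPKM. All 3 were below 10 FPKM on chow. The droplet coat protein PLIN2 was at 25.4, 153 and 90.4 FPKM, and SOAT1, which esterifies cholesterol for storage, at 7.94, 38.8 and 28.3 FPKM. NCEH1, which hydrolyses stored cholesteryl ester, stood at 5.19, 18.5 and 14.8 FPKM.

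Cholesterol efflux genes, many of them targets of the sterol-sensing LXR receptors, were higher in 9 of 17 cases and lower in 0. The higher share was 52.9%, against 12.6% of all genes, and the median 1.10 (1.24 in the non-transgenic cholesterol library). ABCA1, the transporter that loads cholesterol onto apolipoprotein A-I (chromosome 1, 8128276 to 8262632), stood at 4.13, 82.6 and 58.6 FPKM, and ABCG1, which exports it to HDL, at 0.135, 11.8 and 11.5 FPKM. The phospholipid transfer protein PLTP was at 23.8, 246 and 226 FPKM. LXR alpha itself, encoded by NR1H3, stood at 9.25, 52.1 and 58.9 FPKM, and LXR beta, encoded by NR1H2, at 40.97, 32.96 and 34.9 FPKM. NR1H3 was highest in the transgenic library and NR1H2 highest on chow. APOC1 was listed at 0 on chow and stood at 73.4 and 40.9 FPKM in the cholesterol libraries.

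Genes of sterol synthesis, which cells turn down when sterol is plentiful, were below chow in 19 of 23 cases. Of all 11597 genes 5693 were below chow. At 2-fold 2 of the sterol genes were lower (8.70%, against 2.53% of all genes) and 1 was higher (4.35%, against 12.6%). Their median was -0.32 (-0.21 in the non-transgenic cholesterol library). It was -0.13 with each library scaled to the same sum, and -0.04 with that scaling after leaving out mitochondrial DNA genes. The size of this shift thus depends on the scaling. FDFT1, squalene synthase, stood at 66.5, 20.1 and 27.1 FPKM and is 1 of the 2 that were lower. The member that was higher was STARD4, a sterol carrier, at 5.46, 17.5 and 15.00 FPKM. Of further enzymes of the path, HMGCS1 stood at 20.3, 10.04 and 11.8 FPKM and LSS at 19.6, 8.77 and 11.6 FPKM. Of these 3 enzymes FDFT1 alone passed 2-fold.

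Genes of antigen presentation were higher in the transgenic media, 17 of 19 by 2-fold (89.5%, against 12.6% of all genes) and 0 lower. Their median was 1.66 (2.05 in the non-transgenic cholesterol library). CD74, the invariant chain of MHC class II (chromosome 3, 32151081 to 32159662), stood at 43.1, 897 and 1000.0 FPKM. HLA-DMA, which loads peptide onto class II, was at 1.35, 119 and 101 FPKM. CIITA, the class II transactivator, stood at 1.28, 4.58 and 3.54 FPKM, a difference of 0.99. CD74 was highest in the transgenic library, HLA-DMA and CIITA in the non-transgenic cholesterol library. Of the costimulators, CD86 stood at 0.286, 32.1 and 24.4 FPKM and CD80 at 0.408, 22.95 and 16.4 FPKM. Of class I, the light chain B2M stood at 249.8, 1331 and 1223 FPKM and the peptide transporter TAP1 at 4.30, 21.00 and 16.7 FPKM. Rabbit class II genes outside the list, chosen after their values were seen, were RLA-DR-ALPHA at 29.4, 773 and 875 FPKM and RLA-DRB1 at 9.56, 153 and 107 FPKM.

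Genes of the interferon response were 2-fold higher or more in 18 of 31 cases (58.1%, against 12.6% of all genes) and lower in 0. Their median was 1.23 (1.61 in the non-transgenic cholesterol library). OAS2, which senses double-stranded RNA, stood at 2.03, 33.4 and 32.4 FPKM, the antiviral GTPase MX2 at 2.85, 38.5 and 34.5 and the transcription factor IRF7 at 4.39, 44.4 and 56.7. The more different of the rows named OASL was at 0.359, 15.1 and 11.2 FPKM. IRF7 was highest in the transgenic library. MX1 and ISG15, which chow media also held in quantity, did not reach 2-fold: MX1 was at 113, 202 and 199 FPKM and ISG15 at 45.9, 89.6 and 57.04. IFIT2 stood at 26.2, 43.98 and 25.8 FPKM, the same in the transgenic and the chow library to within 2%. CXCL10, the interferon-induced chemokine, was at 5.31, 61.7 and 23.2 FPKM, with the transgenic library well below the non-transgenic one.

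Chemokines and their receptors were higher in 14 of 19 cases (73.7%, against 12.6% of all genes) and lower in 1 (5.26%, against 2.53%). The list median was 1.69 (2.02 in the non-transgenic cholesterol library). CXCR4, the receptor of CXCL12, stood at 1.44, 60.1 and 50.3 FPKM. CCL2, which draws monocytes into lesions, was at 0.637, 23.3 and 9.51 FPKM, and the fractalkine receptor CX3CR1 at 1.93, 10.9 and 8.44 FPKM. The membrane-bound chemokine CXCL16, a scavenger receptor as well, was at 7.44, 38.5 and 36.1 FPKM. CCL2 was well below the non-transgenic cholesterol library. The gene that was lower was CXCL12, at 73.8 FPKM on chow and listed at 0 in both cholesterol libraries. Such a 0 may be an estimate that failed, so nothing is read from the CXCL12 row. The lymphoid chemokine CCL21 was abundant in every library, at 136, 98.5 and 206 FPKM, and highest in the transgenic one. CCL8 was listed at 0 in both other libraries and stood at 6.03 FPKM in the transgenic library.

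Of 45 cytokine, receptor and NF-kappaB genes 26 stood at least 2-fold higher (57.8%, against 12.6% of all genes) and 1 lower (2.22%, against 2.53%). The median was 1.67 in both cholesterol libraries. Genes such as IL1RN, TNF and CASP1 were below 1 FPKM on chow and passed the filter only through the cholesterol libraries. The count of higher genes is thus in part set by the filter. With no filter the transgenic median was 1.32, and without rows listed at 0 it was 1.48. Receptors of microbial products were among the leading genes: CD14, the coreceptor of endotoxin, stood at 5.76, 313 and 248 FPKM, TLR8 at 1.02, 41.7 and 35.6 and TLR4 at 1.41, 28.2 and 25.3. The interleukin-1 receptor antagonist IL1RN was at 0.160, 33.7 and 12.6 FPKM, and TNFSF13B, the B-cell survival factor BAFF, at 0.585, 30.3 and 18.3 FPKM. IL1RN reached less in the transgenic than in the non-transgenic cholesterol library. The cytokine TNF stood at 0.146, 2.04 and 0.988 FPKM and OSM at 0.266, 8.67 and 6.36. Of the inflammasome, the adaptor PYCARD was at 1.04, 18.4 and 15.5 FPKM, the sensor NLRP3 at 0.691, 7.31 and 4.40 and the protease CASP1 at 0.102, 5.92 and 4.46. IL18, a substrate of that protease, was at 29.5, 46.8 and 60.1 FPKM and highest in the transgenic library. The DNA-binding subunit NFKB1 stood at 16.4, 14.03 and 14.9 FPKM and its inhibitor NFKBIA at 26.5, 24.1 and 31.9 FPKM, neither of which reached 2-fold. The member that was lower was TNFRSF12A, the TWEAK receptor, at 14.3, 9.95 and 6.28 FPKM.

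Adhesion molecules that leukocytes use to enter the wall were higher in 11 of 15 cases (73.3%, against 12.6% of all genes) and lower in 0. The median was 1.76 (2.17 in the non-transgenic cholesterol library), and 1.56 with no filter. ITGAL and ITGAM were below 1 FPKM on chow and passed the filter only through the cholesterol libraries. The count of higher genes is thus in part set by the filter. On the leukocyte side, ITGAL, the alpha chain of LFA-1, stood at 0.0816, 66.6 and 52.9 FPKM and ITGAM, the alpha chain of Mac-1, at 0.165, 22.5 and 14.8 FPKM. Their ligand on the vessel wall, ICAM1, was at 10.5, 83.1 and 59.8 FPKM, and VCAM1 (chromosome 13, 63437358 to 63462706), the ligand of the integrin that contains ITGA4, at 2.63, 59.2 and 32.9 FPKM. VCAM1 lay between chow and the non-transgenic cholesterol library. JAM3, a junction protein, stood at 56.4, 28.1 and 37.8 FPKM and was below chow in both.

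Complement genes were higher in 12 of 20 cases (60%, against 12.6% of all genes) and lower in 0. The list median was 1.49 (1.99 in the non-transgenic cholesterol library). Beside C1q, the anaphylatoxin receptor C5AR1 stood at 2.63, 126 and 108 FPKM, its relative C3AR1 at 0.196, 23.7 and 17.2 and the central component C3 at 14.5, 128 and 95.3. Of the proteases, C1R stood at 91.7, 415 and 279 FPKM and C1S at 93.99, 340.4 and 193 FPKM. C3, C1R and C1S were lower in the transgenic than in the non-transgenic cholesterol library, whereas C2 (5.24, 31.1 and 45.4) and properdin, CFP (0.729, 7.48 and 12.9), were highest in the transgenic library. Of the regulators, CD59 stood at 32.7, 20.1 and 24.9 FPKM and CFI at 51.4, 60.02 and 51.2 FPKM and did not reach 2-fold.

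Of 9 NADPH oxidase rows 6 passed the filter. Of these, 4 stood at least 2-fold higher (66.7%, against 12.6% of all genes) and 0 lower, with a median of 3.42 (3.56 in the non-transgenic cholesterol library). The median was 0.54 with no filter and 2.06 with a pseudocount of 5, so it depends on these choices. The 4 belong to the phagocyte enzyme. Among them RAC2 stood at 1.42, 116 and 92.2 FPKM, NCF4 at 0.380, 26.1 and 22.04, and the row shared by CYBB and XK at 1.91, 19.8 and 18.96. NOX4, the form of smooth muscle and fibroblasts, was at 22.4, 25.7 and 23.6 FPKM, and RAC1 at 198, 188 and 188. These last 2 differed by less than 0.1 on the log2 scale.

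Iron and haem genes took a larger share of the transgenic library than of the chow library. Of 20 genes 10 stood at least 2-fold higher (50%, against 12.6% of all genes) and 0 lower. They had a median of 1.02 (1.01 in the non-transgenic cholesterol library), and their sum made up 0.383%, 3.03% and 2.73% of the 3 libraries. Ferritin, the iron store, carried most of it: the heavy chain FTH1 stood at 2757, 18949.8 and 15928 FPKM and the light chain FTL at 509, 7726 and 5924. HMOX1, which breaks down haem (chromosome 4, 86060985 to 86066691), was at 4.28, 94.7 and 96.1 FPKM, and the iron exporter SLC40A1 at 26.6, 41.3 and 63.2 FPKM. SLC40A1 was highest in the transgenic library. CP, ceruloplasmin, stood at 2.22, 72.7 and 27.9 FPKM and the ferrireductase STEAP3 at 0.0790, 18.5 and 5.03, both well below the non-transgenic cholesterol library.

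Of 28 antioxidant genes 4 stood at least 2-fold higher (14.3%, near the 12.6% of all genes) and 0 lower, with a median of 0.27 (0.09 in the non-transgenic cholesterol library). The 4 were HMOX1, SESN2 at 0.973, 13.4 and 5.51 FPKM, glutathione peroxidase GPX1 at 548, 1953 and 1537 and catalase CAT at 33.2, 86.3 and 91.2. Of the superoxide dismutases, SOD1 stood at 81.03, 52.1 and 54.7 FPKM and SOD3 at 636, 367 and 498 FPKM, below chow. NFE2L2, which encodes the antioxidant regulator NRF2, was at 40.2, 54.5 and 56.4 FPKM, and its target NQO1 at 54.4, 55.7 and 58.2. CAT, NFE2L2 and NQO1 were highest in the transgenic library by small margins.

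**Figure D4:**
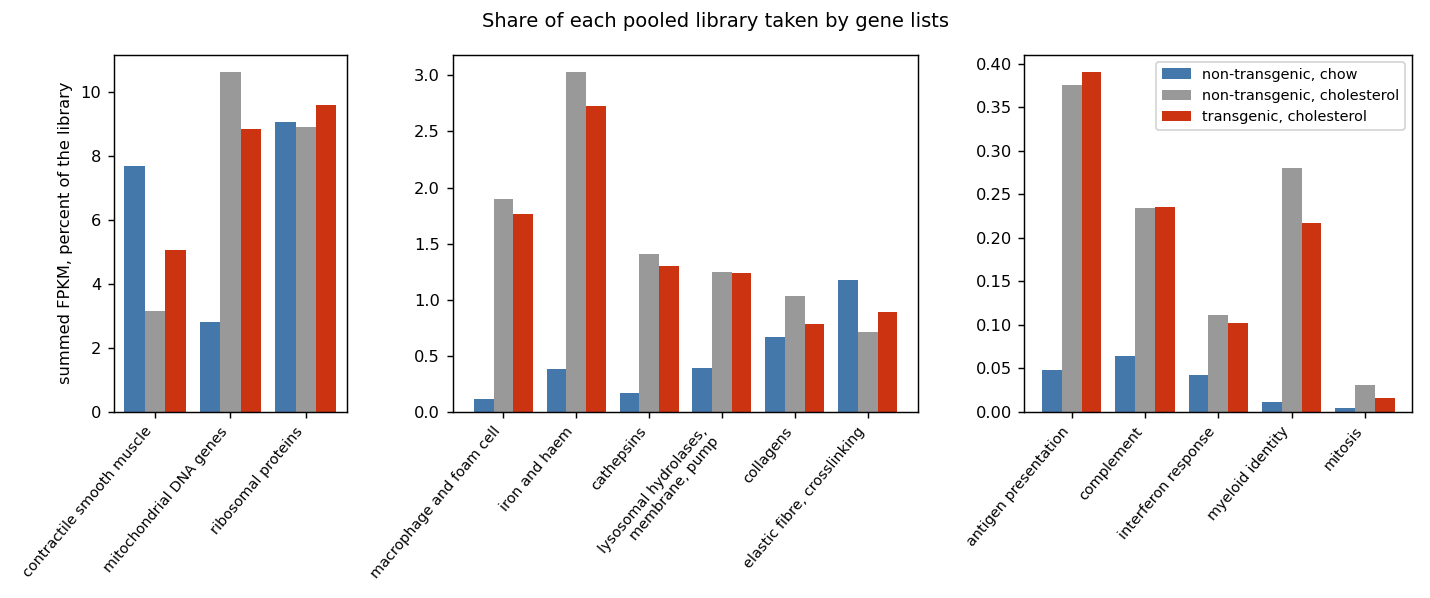
Summed FPKM of 14 gene lists as percent of each pooled library, with bars from 0 and a scale of its own in each panel. Contractile smooth muscle genes take 7.68%, 3.15% and 5.06% of the chow, non-transgenic cholesterol and transgenic cholesterol library, mitochondrial DNA genes 2.79%, 10.6% and 8.84%, and macrophage genes 0.109%, 1.89% and 1.77%.

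Transcripts of dividing cells were present in the transgenic media at levels of a few FPKM, between those of the other 2 libraries. Of 43 mitosis genes 28 stood at least 2-fold higher (65.1%, against 12.6% of all genes) and 0 lower, with a median of 1.30. Of 27 DNA replication genes 10 were higher (37.0%) and 0 lower, with a median of 0.73. In the non-transgenic cholesterol library the medians were 2.15 and 1.20. MKI67, the proliferation antigen (scaffold GL018726, 2310835 to 2336198), stood at 0.0758, 11.2 and 4.23 FPKM. The mitotic cyclin CCNB2 was at 0.266, 12.7 and 4.45 FPKM, the spindle protein PRC1 at 0.583, 11.2 and 7.996 and the kinase CDK1 at 0.111, 5.26 and 2.68. CDC20, which activates the anaphase ligase, was at 0.743, 11.9 and 5.02 FPKM. In all 5 the transgenic library lay above chow and below the non-transgenic cholesterol library. These 5 were below 1 FPKM on chow, and 6 further mitosis genes were listed at 0 there. Such genes passed the filter only through the cholesterol libraries, so the count of higher mitosis genes is in part set by the filter. With no filter the medians were 1.17 for mitosis and 0.68 for DNA replication. Of the replicative helicase, MCM2 stood at 1.33, 13.97 and 7.85 FPKM, MCM4 at 0.852, 9.87 and 5.59 and MCM5 at 1.69, 12.2 and 7.61, and the ribonucleotide reductase subunit RRM2 at 0.428, 13.7 and 5.57. The clamp PCNA, at 35.2, 82.1 and 68.2 FPKM, was the most abundant gene of the pair of lists. Because these genes lie near the pseudocount of 1, their differences understate their ratios.

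Genes that halt the cycle or decide cell death were higher in 9 of 25 cases (36%, against 12.6% of all genes) and lower in 0. Their median was 0.64 (0.93 in the non-transgenic cholesterol library). CDKN1A, the p53 target p21 (chromosome 12, 26617922 to 26619857), stood at 13.3, 153 and 95.6 FPKM, and the proapoptotic BAX at 38.6, 139.9 and 103 FPKM. CDKN2A was listed at 0 on chow and at 8.33 and 3.37 FPKM in the cholesterol libraries. BCL2A1, a survival protein of leukocytes, was at 0.469, 71.1 and 49.1 FPKM, the caspase CASP8 at 0.208, 8.91 and 8.27 and the caspase CASP4 at 0.512, 14.9 and 7.05. Below chow, short of 2-fold with the pseudocount, were the survival protein BCL2 at 51.01, 25.3 and 34.7 FPKM and the cyclin CCND2 at 115, 46.5 and 57.3 FPKM.

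Contractile smooth muscle transcripts were lower in the transgenic media than on chow, almost all of them by less than 2-fold. Of 38 genes 35 were below chow, with a median difference of -0.76. At 2-fold 2 were lower (5.26%, against 2.53% of all genes) and 1 was higher (2.63%, against 12.6%). The median gene stood at 57.8% of its chow level. In the non-transgenic cholesterol library 31 of the 38 were at least 2-fold lower, the median difference was -1.31 and the median level 37.3% of chow. As a share of the library the list took 7.68% on chow, 3.15% in the non-transgenic and 5.06% in the transgenic cholesterol library.

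**Figure D5:**
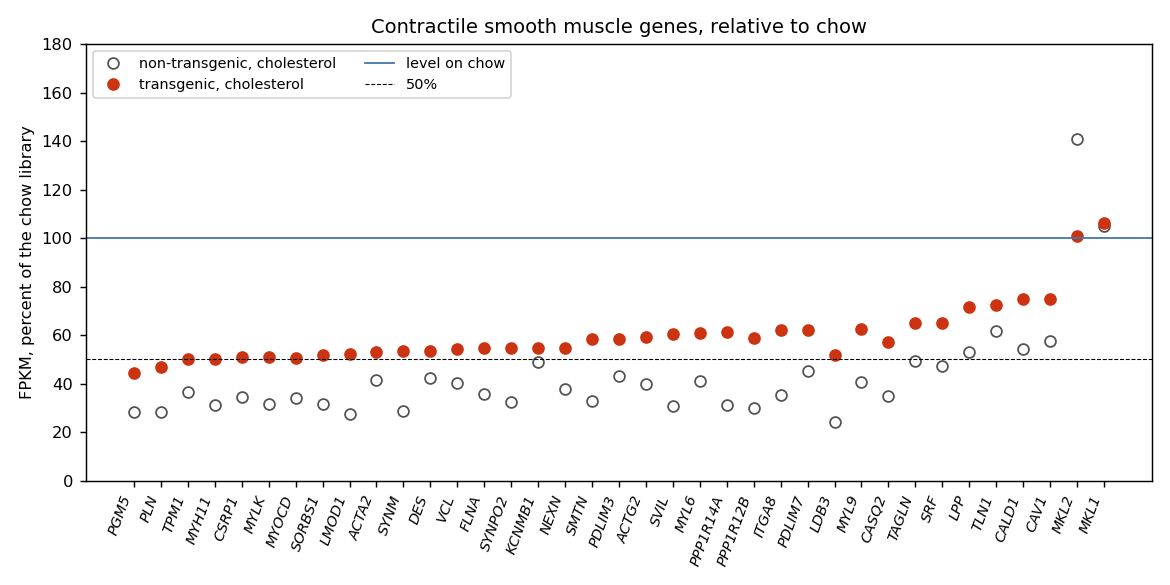
Level of 37 contractile smooth muscle genes in the transgenic (filled) and non-transgenic (open) cholesterol library, as percent of the chow library, ordered by the difference of the transgenic library. Most filled points lie between 50% and 75%, from PGM5 at 44.3% to MKL1 at 106%, and the open points lie below them except for MKL2. The less abundant TPM1 row, at 463%, is left out.

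Among structural proteins of the contractile apparatus, ACTA2, the actin of smooth muscle (chromosome 18, 36853090 to 36871014), was measured at 12462, 5161 and 6594 FPKM, which in the transgenic library is 52.9% of chow. MYH11, smooth muscle myosin heavy chain (chromosome 6, 11036305 to 11130375), was at 6284, 1951 and 3164 FPKM (50.4%), and TAGLN, transgelin (chromosome 1, 99217457 to 99218723), at 7860.5, 3888 and 5118 FPKM (65.1%). Each lay between the non-transgenic cholesterol library and chow. Of the myosin light chains, MYL6 stood at 13208, 5402 and 8039.9 FPKM and MYL9 at 7243, 2937 and 4538 FPKM. The actin nucleator LMOD1 stood at 653, 179 and 340.4 FPKM, smoothelin, SMTN, at 375, 123 and 219.6 and desmin, DES, at 58.2, 24.5 and 31.00.

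The 2 genes past 2-fold were PLN, phospholamban, which restrains the calcium pump of the sarcoplasmic reticulum (chromosome 12, 107544968 to 107555391), at 1997, 564 and 936 FPKM, and PGM5, aciculin of the adherens plaque (chromosome 1, 54570517 to 54802335), at 839, 238 and 372 FPKM. The member that was higher was the less abundant of 2 rows for tropomyosin 1, TPM1, at 15.8, 94.2 and 72.9 FPKM, and the abundant TPM1 row was at 724, 266 and 363 FPKM. Reads of the pair may be shared, so the TPM1 values are uncertain. Of the regulators, MYOCD, myocardin, the coactivator of the contractile genes, stood at 83.9, 28.7 and 42.6 FPKM and its partner SRF at 114, 53.8 and 73.8. Of the related coactivators, MKL1 stood at 9.30, 9.76 and 9.88 FPKM and MKL2 at 6.20, 8.75 and 6.26 FPKM, near chow. MYLK, the kinase that starts contraction, was at 579.9, 182 and 296 FPKM, and PPP1R14A, an inhibitor of myosin phosphatase, at 4287, 1337 and 2634 FPKM.

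Ion channels, receptors and second-messenger genes of smooth muscle had a median of -0.43 (-0.58 in the non-transgenic cholesterol library), with 7 of 47 at least 2-fold higher (14.9%, near the 12.6% of all genes) and 3 lower (6.38%, against 2.53%). The 3 that were lower are receptors. P2RX1, the ATP-gated channel of sympathetic vasoconstriction (chromosome 19, 14613185 to 14629169), stood at 59.3, 7.33 and 13.9 FPKM. The alpha-1A adrenoceptor ADRA1A was at 41.1, 11.01 and 16.2 FPKM and the histamine receptor HRH1 at 10.5, 0.372 and 4.51 FPKM. HRH1 was far lower in the non-transgenic than in the transgenic cholesterol library. The L-type calcium channel CACNA1C stood at 18.8, 6.17 and 9.14 FPKM, the calcium-activated potassium channel KCNMA1 at 189, 65.9 and 106 and its subunit KCNMB1 at 344, 168 and 188. Of genes that act on cGMP, the kinase PRKG1 stood at 113, 51.5 and 66.2 FPKM and the phosphodiesterase PDE5A at 149.7, 69.1 and 91.3. All 5 lay below chow in both cholesterol libraries, and in the transgenic one none was called lower, since on the log2(FPKM + 1) scale each differed by less than 1.

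The 7 that were higher include receptors that macrophages express: P2RY12 stood at 0.582, 10.97 and 8.01 FPKM, P2RY6 at 0.307, 3.70 and 3.07, the cation channel TRPV2 at 1.30, 27.9 and 24.5 and P2RX4 at 15.8, 57.5 and 49.1. RGS1, a G-protein regulator of leukocytes, was listed at 0 on chow and stood at 18.2 and 14.4 FPKM in the cholesterol libraries. The prostacyclin receptor PTGIR was at 1.47, 2.28 and 5.43 FPKM, highest in the transgenic library. RGS2, at 39.1, 122 and 102 FPKM, completes the 7. Macrophage markers were higher in the same library, and their part in these values was not tested.

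Matrix genes showed no common direction in the transgenic media. The median of the collagen list was 0.03, against a median of 0.44 in the non-transgenic cholesterol library. In the transgenic library 2 of 29 genes were 2-fold higher (6.90%, below the 12.6% of all genes) and 0 lower. COL8A1, a short-chain collagen made by activated smooth muscle cells, on chromosome 14, 120912577 to 121077726, stood at 14.5, 199.6 and 73.9 FPKM, between the other libraries. The prolyl hydroxylase subunit P4HA3 was listed at 0 on chow and at 7.86 and 2.72 FPKM in the cholesterol libraries. Of the fibrillar collagens, COL1A1 was at 677, 1992 and 1245 FPKM, COL1A2 at 702, 1526 and 927 and COL3A1 at 2021, 1891 and 1309.6. COL1A1 lay above chow, COL3A1 below it, and neither by 2-fold. COL12A1 was at 12.6, 27.6 and 22.1 FPKM and COL6A3 at 81.1, 179 and 121. Basement membrane COL4A1 stood at 414, 693 and 477 FPKM and COL6A1 at 262, 248 and 181.

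Elastic fibre genes were mostly below chow, with a median of -0.40 (-0.32 in the non-transgenic cholesterol library). At 2-fold 2 of 18 were higher (11.1%, against 12.6% of all genes) and 1 lower (5.56%, against 2.53%). LTBP4, which tethers TGF-beta and guides elastin assembly (scaffold AAGW02082344, 9484 to 14317), stood at 1481, 367 and 599 FPKM and was the gene that was lower. Fibulin-5, FBLN5, was at 583, 314 and 334 FPKM, fibrillin-1, FBN1, at 383, 304 and 256, EFEMP1 at 952, 679 and 639 and MFAP4 at 5887, 3010.2 and 3981. These 4 lay below chow in both cholesterol libraries, short of 2-fold in the transgenic one. The 2 that were higher were EMILIN2 at 12.2, 29.3 and 33.9 FPKM and the crosslinking enzyme LOXL4 at 3.11, 15.8 and 8.89. Lysyl oxidase, LOX, stood at 143, 219.7 and 107 FPKM, above chow in the non-transgenic and below it in the transgenic cholesterol library.

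Matricellular genes, secreted proteins that steer cells rather than bear load, split widely, with a median of 0.32 (0.70 in the non-transgenic cholesterol library). At 2-fold 7 of 20 were higher (35%, against 12.6% of all genes) and 3 lower (15%, against 2.53%). Beside SPP1, periostin, POSTN (scaffold GL018719, 553830 to 589016), stood at 21.4, 371 and 156 FPKM, CTHRC1 at 0.280, 34.98 and 6.30, tenascin-C, TNC, at 2.20, 17.2 and 12.2 and thrombospondin-1, THBS1, at 5.75, 51.05 and 20.3. In each of these 4 the transgenic library lay above chow and below the non-transgenic cholesterol library. Fibronectin, FN1, was at 874, 2683 and 1943 FPKM and TGFBI at 101, 282 and 211. The 3 that were lower were NOV at 1162, 498 and 507 FPKM, SMOC1 at 81.5, 25.8 and 36.2 and tenascin-X, TNXB, at 49.1, 9.98 and 19.9. SPARC stood at 2742, 4622 and 2778 FPKM, at its chow level in the transgenic library.

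Of 21 proteoglycan and hyaluronan genes 4 stood at least 2-fold higher (19.0%, against 12.6% of all genes) and 2 lower (9.52%, against 2.53%). The list median was -0.10 (-0.16 in the non-transgenic cholesterol library). Syndecan-3, SDC3, stood at 20.4, 77.98 and 92.7 FPKM, the hyaluronan receptor CD44 at 33.7, 155 and 96.7, lubricin, PRG4, at 10.5, 8.99 and 30.3 and lumican, LUM, at 85.1, 370.4 and 196. The 2 that were lower were GPC3 at 12.4, 1.98 and 4.41 FPKM and HAPLN1 at 18.8, 13.03 and 8.15. Of the proteoglycans that bind lipoprotein in lesions, versican, VCAN, stood at 169, 195 and 154 FPKM and biglycan, BGN, at 1834, 2284 and 1835 FPKM. Perlecan, HSPG2, was at 539, 242 and 271 FPKM, a difference of -0.99, and the glypican GPC6 at 23.6, 14.2 and 11.9. SDC3 and PRG4 were highest in the transgenic library.

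Proteases of the matrix and their inhibitors were higher in 6 of 15 cases (40%, against 12.6% of all genes) and lower in 0. Their median was 0.45 (0.96 in the non-transgenic cholesterol library). It was 0.18 without the 3 genes listed at 0, and 0.09 with no filter. The 6 include MMP1 and MMP12, whose 0 on chow may be an estimate that failed. They also include MMP9, which passed the filter only through the cholesterol libraries. Beside MMP12, the gelatinase MMP9 stood at 0.166, 6.83 and 4.19 FPKM, the membrane protease MMP14 at 39.01, 151 and 87.5 and TIMP1, an inhibitor of such proteases, at 73.6, 476 and 268. MMP1 and MMP3 were listed at 0 on chow, stood at 9.91 and 5.73 FPKM in the non-transgenic cholesterol library, and were at 1.01 and 0.661 FPKM in the transgenic one. TIMP4 was at 1.11, 2.18 and 3.81 FPKM and highest in the transgenic library. MMP2 stood at 108, 212 and 144 FPKM and TIMP3, an inhibitor bound to matrix, at 328, 249.8 and 259.9.

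Genes of TGF-beta and BMP signalling had a median of -0.11 (-0.17 in the non-transgenic cholesterol library), with 4 of 28 at least 2-fold higher and 1 lower. These shares, 14.3% and 3.57%, are near the 12.6% and 2.53% of all genes. The ligand TGFB1 stood at 10.5, 35.9 and 24.95 FPKM and the ligand TGFB3 at 66.1, 53.01 and 39.8. Of the endothelial receptors, ENG stood at 15.97, 80.8 and 70.8 FPKM and ACVRL1 at 3.84, 13.2 and 9.56 FPKM. The gene that was lower was SMAD9 at 47.6, 19.7 and 22.9 FPKM, and the BMP target ID3 stood at 995, 535 and 585 FPKM, a difference of -0.76. The receptor BMPR1B was at 4.48, 1.52 and 1.83 FPKM. TGFB3, SMAD9, ID3 and BMPR1B were below chow in both cholesterol libraries.

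Of 28 growth factor genes of the PDGF, IGF and VEGF families 6 were at least 2-fold higher (21.4%, against 12.6% of all genes) and 0 lower. Their median was 0.12 (0.20 in the non-transgenic cholesterol library). PDGFB, which drives smooth muscle migration, stood at 0.714, 8.62 and 8.47 FPKM, equal in the cholesterol libraries to within 2%. VEGFA was at 7.21, 51.9 and 19.7 FPKM, with the transgenic library below the non-transgenic one. IGFBP2, an IGF carrier, was at 62.4, 116 and 252 FPKM and highest in the transgenic library. The placental growth factor PGF was at 3.51, 15.1 and 12.7 FPKM and IGF2R, which also sorts lysosomal enzymes, at 30.1, 109 and 89.3. Receptors of smooth muscle mitogens were below chow, short of 2-fold: PDGFRB was at 118, 116 and 94.6 FPKM, FGFR1 at 140.0, 92.8 and 90.9 and IGF1R at 29.1, 16.3 and 17.6.

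Calcification and osteogenic genes had a median of -0.07 in both cholesterol libraries. At 2-fold 2 of 14 were higher (14.3%, near the 12.6% of all genes) and 1 lower (7.14%, against 2.53%). The 2 were SPP1 and the decoy receptor osteoprotegerin, TNFRSF11B, at 26.9, 73.2 and 76.8 FPKM. BGLAP, osteocalcin, was at 4.93 FPKM on chow, 2.20 in the non-transgenic cholesterol library and listed at 0 in the transgenic one. The phosphate transporter SLC20A2 stood at 21.3, 9.004 and 11.8 FPKM, the coreceptor klotho, KL, at 9.004, 1.86 and 5.30, sclerostin, SOST, at 38.4, 10.4 and 24.9 and ENPP1, which makes pyrophosphate, at 33.1, 23.3 and 25.1. All 4 were below chow and did not reach 2-fold. The inhibitor of calcification MGP, among the most abundant transcripts of the media, stood at 6120.1, 9336 and 8480.2 FPKM.

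Transcripts of the respiratory chain differed between the mitochondrial and the nuclear genome. Of the 13 mitochondrial DNA genes 7 stood at least 2-fold higher in the transgenic library (53.8%, against 12.6% of all genes) and 0 lower. They had a median of 1.71 (2.01 in the non-transgenic cholesterol library) and took 2.79%, 10.6% and 8.84% of the 3 libraries. MT-ATP8 (the mitochondrial genome, 7796 to 7999) stood at 3537, 35838 and 23135 FPKM and overlaps MT-ATP6, at 1486, 7235 and 5588, so reads of the overlap cannot be assigned. CYTB, cytochrome b, was at 366, 3495 and 2506 FPKM, the cytochrome oxidase subunit COX2 at 1934, 10738 and 7728 and MT-ND3 at 788, 5344 and 3761. In contrast MT-ND1 stood at 1788, 1965 and 2267 FPKM and MT-ND2 at 1501, 1759 and 2029, with the highest level in the transgenic library. The genes of the same genome therefore spanned differences from 0.34 to 2.77.

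The nuclear genes of oxidative phosphorylation differed little. Of 47 genes 0 stood at least 2-fold higher and 2 lower (4.26%, against 2.53% of all genes). The median was 0.03 (0.09 in the non-transgenic cholesterol library). The 2 that were lower were listed at 0 in both cholesterol libraries: NDUFB7, at 3244 FPKM on chow, and COX7A1, at 12.98. Such a 0 may be an estimate that failed, so nothing is read from these 2 rows. Among the rest, the largest difference was that of UQCRQ, at 108, 238 and 194 FPKM. NDUFC2 followed at 19.8, 38.1 and 32.7 FPKM, COX5A at 99.4, 202 and 149.9 and NDUFB8 at 137, 198 and 185. The complex II subunit SDHA was at 116, 143 and 145 FPKM and the ATP synthase subunit ATP5B at 374, 417 and 392. None of 41 genes of fatty acid oxidation and the citrate cycle passed 2-fold on the log2(FPKM + 1) scale in either direction, with a median of 0.01 (0.04 in the non-transgenic cholesterol library). Pyruvate carboxylase, PC, stood at 1.85, 3.34 and 3.78 FPKM, IDH1 at 40.9, 67.01 and 60.3 and malate dehydrogenase MDH2 at 156, 208 and 208. These 3 were among the 4 with the largest differences above chow, and the acyl-CoA dehydrogenase ACADM, at 77.7, 38.1 and 47.2 FPKM, the largest below it.

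The partners and known targets of PGC-1alpha in mitochondrial biogenesis had a median of -0.06 (0.00 in the non-transgenic cholesterol library). At 2-fold 2 of 29 were higher (6.90%, against 12.6% of all genes) and 1 lower (3.45%, against 2.53%). Of the DNA-binding factors it acts with, NRF1 stood at 5.99, 4.77 and 5.71 FPKM, GABPA at 16.8, 17.6 and 15.6, and TFAM, the mitochondrial transcription factor, at 8.34, 6.25 and 7.46 FPKM. The largest of these 3 differences was that of TFAM, -0.14. The coactivator's nuclear receptor partner PPARA was at 26.5, 11.5 and 16.9 FPKM, and PPARG at 1.07, 6.04 and 5.55 FPKM. The uncoupling protein UCP2, which macrophages also express, was at 1.76, 53.2 and 42.1 FPKM and, with PPARG, makes up the 2 that were higher. THRA, a thyroid hormone receptor, was lower at 105, 32.2 and 46.5 FPKM. The kinase subunit PRKAA2 was at 6.73, 4.20 and 3.39 FPKM and FNDC5, a PGC-1alpha target in mouse muscle, at 2.42, 1.18 and 1.15. The related coactivator PPARGC1B stood at 1.60, 5.11 and 4.01 FPKM.

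Glycolysis and pentose phosphate genes were higher in 9 of 32 cases (28.1%, against 12.6% of all genes) and lower in 0. Their median was 0.36, against 0.93 in the non-transgenic cholesterol library. The entry enzyme HK2 stood at 2.72, 33.8 and 20.3 FPKM, the regulator PFKFB3 at 6.32, 68.4 and 48.5, SLC2A3, which imports glucose, at 3.75, 43.1 and 22.1 and the lactate exporter SLC16A3 at 0.182, 23.6 and 13.4. Lactate dehydrogenase LDHA was at 45.4, 206 and 112 FPKM. In all 5 the transgenic library lay between chow and the non-transgenic cholesterol library. The abundant enzymes of the common path were near chow in the transgenic library, with ALDOA at 684, 810.0 and 716 FPKM and ENO1 at 635, 1076 and 733. PFKP, the platelet-type phosphofructokinase, stood at 216, 85.6 and 111 FPKM. PDK4, which shuts pyruvate out of oxidation, was at 0.790, 9.74 and 8.24 FPKM.

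Immediate early genes, which respond within minutes to stimuli in the animal and to handling of tissue, included 6 leading genes that were highest in the transgenic library. Of 28 immediate early and heat shock genes 9 stood at least 2-fold higher than on chow (32.1%, against 12.6% of all genes) and 0 lower. The list median was 0.48 (0.45 in the non-transgenic cholesterol library). FOSB (scaffold GL019006, 121963 to 124101) stood at 4.01, 13.7 and 108 FPKM, NR4A1, an orphan nuclear receptor, at 12.1, 26.6 and 152 and the zinc finger factor EGR1 at 85.9, 128 and 407. FOS was at 233, 343 and 826 FPKM, ATF3 at 60.1, 193 and 307 and the antiproliferative BTG2 at 22.1, 36.2 and 89.8. In these 6 genes the transgenic library exceeded both others. JUN stood at 328, 178 and 311 FPKM and the phosphatase DUSP1 at 287, 194 and 357, which did not reach 2-fold. Of the small heat shock proteins of muscle, HSPB6 was below chow at 1024, 251 and 526 FPKM and HSPB7 at 70.9, 25.5 and 45.5 FPKM. The sources used here give no time from death to dissection.

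Genes of the unfolded protein response and amino acid stress had a median of 0.34 (0.60 in the non-transgenic cholesterol library). Of 26 such genes 5 were at least 2-fold higher (19.2%, against 12.6% of all genes) and 1 lower (3.85%, against 2.53%). Of the folate enzymes, MTHFD2 stood at 10.4, 69.9 and 30.9 FPKM and SHMT2 at 1.06, 16.6 and 5.29 FPKM, the serine synthesis enzyme PSAT1 at 0.208, 16.8 and 2.23 and the pseudokinase TRIB3 at 0.290, 8.33 and 2.31. These 4 lay well below the non-transgenic cholesterol library and above chow. The chaperone cofactor SDF2L1 was at 2.25, 14.9 and 12.4 FPKM and the chaperone HSPA5 at 132, 219.6 and 187. The gene that was lower was SERP1 at 134, 303 and 56.2 FPKM, which was higher than chow in the non-transgenic cholesterol library.

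Autophagy genes had a median of -0.16 (-0.17 in the non-transgenic cholesterol library), and 0 of 26 passed 2-fold in either direction. The receptor SQSTM1 stood at 194, 322 and 286 FPKM and UVRAG, at the other end of the list, at 15.97, 12.5 and 10.8. GABARAPL1 was at 92.9, 56.9 and 71.6 FPKM, ATG10 at 55.2, 36.9 and 42.9 and the mitophagy kinase PINK1 at 199, 99.1 and 156. Ribosomal proteins had a median of -0.09 (-0.11 in the non-transgenic cholesterol library). Of 67 rows 0 were at least 2-fold higher and 3 lower (4.48%, against 2.53% of all genes). The 3 are additional rows of genes with several rows, RPS14 at 5.18, 3.68 and 0.945 FPKM, RPS23 at 3.99, 0.534 and 0.549 and RPS27 at 158, 85.9 and 78.1. A row named RPL15, at 150.3, 123 and 109 FPKM, came next within the list. The list does not hold the RPL17 row described below, whose difference was -3.50. Ribosomal protein genes have near-identical copies, so their reads can be split and such rows are uncertain.

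Markers of other cell types were read beside these results. Of 20 endothelial markers 8 were at least 2-fold higher (40%, against 12.6% of all genes) and 0 lower. The endothelial median was 0.83 (0.95 in the non-transgenic cholesterol library). VWF, von Willebrand factor, stood at 8.36, 28.7 and 44.3 FPKM, the fenestral protein PLVAP at 11.4, 58.6 and 42.4 and EMCN at 9.11, 36.2 and 33.2. CDH5, the endothelial cadherin, was at 5.84, 12.01 and 11.5 FPKM, and the nitric oxide synthase NOS3 at 4.29, 3.21 and 4.89. VWF was highest in the transgenic library, and the defining junction protein CDH5 was equal in the cholesterol libraries to within 5%.

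Lymphocyte markers were few. Of 28 T and B cell rows found 9 passed the filter, with a median of 0.30 (0.33 in the non-transgenic cholesterol library). At 2-fold 4 were higher (44.4%, against 12.6% of all genes) and 1 lower (11.1%, against 2.53%). Of these, CD28, MZB1 and IL7R were below 1 FPKM on chow and passed the filter only through the cholesterol libraries. Nothing is therefore read from the count. With no filter the median was 0.08. CD3E, a chain of the T cell receptor complex, stood at 2.20, 2.81 and 1.13 FPKM, and the coreceptor CD4 at 1.08, 1.43 and 1.15 FPKM. XBP1, the plasma cell factor, was at 3.83, 4.998 and 4.93 FPKM. The immunoglobulin joining chain, IGJ, was at 5.52, 181 and 42.3 FPKM, and the interleukin-7 receptor IL7R at 0.469, 26.1 and 11.2 FPKM. IGJ was much lower in the transgenic than in the non-transgenic cholesterol library. CD28 and MZB1 were listed at 0 on chow and at 18.2 and 1.23 FPKM in the transgenic library. CD8B was lower, at 3.83, 0.251 and 0.516 FPKM. The 3 neutrophil genes S100A8, S100A9 and S100A12 were listed at 0 on chow. In the transgenic library S100A8 stood at 24.8 FPKM, S100A9 at 6.20 and S100A12 at 3.80. Their sum was 0, 12.3 and 34.8 FPKM in the 3 libraries, so they were present in the non-transgenic cholesterol library too.

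Adventitial fibroblast markers had a median of -0.29 (-0.42 in the non-transgenic cholesterol library). At 2-fold 1 of 18 was higher (5.56%, against 12.6% of all genes) and 1 lower (5.56%, against 2.53%). The higher one was LUM and the lower one SFRP4, at 16.9, 7.35 and 7.44 FPKM. DCN, decorin, stood at 238, 121 and 247 FPKM and PDGFRA at 14.05, 13.5 and 10.7. MFAP5 was at 346, 154 and 243 FPKM and DPT at 53.6, 24.3 and 39.2, and PI16 stood at 411 FPKM on chow and 298 in the transgenic library but 0 in the non-transgenic cholesterol library. The markers of Schwann cells and nerve, median -0.48 (-0.79), were lower in 2 of 11 cases (18.2%, against 2.53% of all genes). They were higher in 1 case (9.09%, against 12.6%), the myelin gene MBP, at 3.76, 34.7 and 22.4 FPKM. SOX10 was at 2.53, 0.637 and 0.970 FPKM, and S100B at 8.14 FPKM on chow and 5.03 in the transgenic library. Striated muscle genes had a median of -0.62 (-1.54), with 0 of 7 higher and 2 lower (28.6%, against 2.53%). The 2 were ACTC1 at 7.51, 1.19 and 0.658 FPKM and TNNC1 at 264, 80.1 and 99.3. RYR2 stood at 11.9, 3.99 and 7.27 FPKM and CKM at 57.4, 19.1 and 37.04. Of 6 adipocyte genes 2 were higher (33.3%, against 12.6%) and 1 lower (16.7%, against 2.53%), with a median of 0.61 (-0.30). Those higher were PPARG, given above, and ADIPOQ, at 6.80, 24.7 and 16.1 FPKM, and the lower one CIDEA, at 31.1, 10.8 and 11.6. GPD1 was at 4.24, 2.96 and 9.12 FPKM and DGAT2 at 7.02, 4.16 and 8.65. ALAS2, the only erythroid marker measured, stood at 1.14, 1.16 and 3.35 FPKM, and the globin HBB2, named after its value was seen, at 37.1, 106 and 334 FPKM. Some blood, endothelial and nerve transcripts thus differed from chow in the same library as the lesion genes, and their part in the results was not tested.

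Of the 12 genes with the largest differences, among those with a mean of at least 5 FPKM and above 0 in both libraries, 5 are in none of the lists. LGALS9, galectin-9 (chromosome 19, 20276450 to 20290378), stood at 0.268, 248 and 219 FPKM, and MLANA, a melanosome protein in human melanocytes (chromosome 1, 48271766 to 48296598), at 0.356, 212 and 230.4 FPKM. GGH, a lysosomal folate hydrolase (chromosome 3, 78802067 to 78831793), was at 1.24, 154 and 152 FPKM, HAVCR1, a receptor for phosphatidylserine (chromosome 3, 38519799 to 38546290), at 0.710, 134 and 114 and MPEG1, a pore-forming protein of macrophages (chromosome 1, 192106880 to 192109033), at 1.84, 208 and 160.5. MLANA was higher in the transgenic than in the non-transgenic cholesterol library, the other 4 were lower.

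The largest differences on the lower side were of mixed kind. RPL17, a ribosomal protein gene with near-identical copies, had 2 rows, of which 1 stood at 278, 580.4 and 23.7 FPKM and was below chow in the transgenic library and above it in the non-transgenic cholesterol library. CA3, a carbonic anhydrase of muscle and fat (chromosome 3, 101075705 to 101087678), was at 14.6, 1.54 and 0.667 FPKM, SNRPF, a core spliceosome protein, at 16.5, 11.5 and 1.19 and LECT1, chondromodulin (chromosome 8, 54111908 to 54137590), at 239.9, 59.1 and 54.7. G0S2, an inhibitor of triglyceride lipase, was at 30.5, 5.004 and 7.72 FPKM, profilin-2, PFN2, at 18.4, 1.30 and 4.02 and the protease inhibitor SPINK8 at 30.04, 3.57 and 6.98. CA3, LECT1, G0S2, PFN2 and SPINK8 were low in both cholesterol libraries. COX20 and COA4, assembly factors of cytochrome oxidase, stood at 37.2, 7.23 and 6.38 FPKM and at 58.4, 26.5 and 13.5 FPKM. RPS19BP1 was at 74.5, 43.6 and 14.3 FPKM and the zinc finger gene ZNF438 at 62.04, 29.1 and 14.3 FPKM. These 4 rows span 516, 264, 370 and 246 bases of the genome, and RPS19BP1 and ZNF438 have the same value, 14.3 FPKM, in the transgenic library.

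Of the 11597 genes 257 were listed at 0 in the chow library, the transgenic library or both, 164 of them among the higher and 47 among the lower calls. Short rows were more frequent among them: 36.2% span at most 500 bases, against 2.59% of the other 11340. DEFB1, a defensin, and MRPL36, a mitochondrial ribosomal protein, each on a row of 153 bases, were listed at 0 in both other libraries and at 901 and 300.2 FPKM in the transgenic library, values whose ratio is exactly 3. APRT (219 bases) and LINC00116 (171 bases) were listed at 0 on chow and stood at 1290.2 and 435 FPKM in the non-transgenic and 591 and 267 in the transgenic cholesterol library. On the other side, NDUFB7 (111 bases), SPTSSA and MT3, a metallothionein, were listed at 0 in both cholesterol libraries and stood at 3244, 374 and 248 FPKM on chow. SMIM10L1 (201 bases) was at 82.6 and 55.95 FPKM and listed at 0 in the transgenic library. A 0 in FPKM may be an estimate that failed, so no ratio is given for these genes.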

How the data were processed

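Each library is the polyadenylated RNA of 5 rabbits, enriched on oligo(dT) beads and prepared with a TruSeq kit, per the labels' protocols. The values are FPKM, which the authors computed and deposited in 1 column per library, and the column names say FPKM per the file headers. The submitters' processing notes name the build OryCun2.0. Which aligner and which program gave the FPKM, and whether libraries were scaled to each other, the sources used here do not say.

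From these values, differences, counts, medians and list shares were computed with Python 3.11.15, pandas 2.3.3 and numpy 2.4.6 and drawn with matplotlib 3.10.9, and the script was tested on simulated data. Genes were kept at a mean of at least 1 FPKM. A pseudocount of 1 FPKM was added before log2, so fold changes on this scale understate those of low genes. With 1 pooled library per group nothing could be tested between groups, and no library is a replicate of another. The depth is unknown in reads. Between libraries, however, low values stand in whole-number ratios. Of 203 low genes 83.7% lay within 1% of such a ratio when the transgenic library was given 1.25 times the fragments of chow. The share was 7.67% on average over the factors tried. Any scaling between libraries would enter this factor too, so it is a ratio of fragments only if there was none.

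The genes and lists were chosen with earlier results of these data known. Rows with joined symbols carry the last symbol in capitals, lists were matched to any of the joined symbols, and 1 row that joins RAC1 with a ribonuclease was kept out of the lists. The row of CYBB carries the symbol XK. In the measured set, 1153 rows have no symbol and enter the counts only. The rule for named genes took PPARGC1A, then, at a mean of at least 5 FPKM, the 12 largest differences in each direction above 0 in both libraries and the 5 highest rows listed at 0 in each direction. It also took the 4 leading genes of each list in the direction of its median and up to 5 that go against it by 2-fold. Other genes were named after their values were seen. A few list members enter the counts and medians but are not reported here by name. Other pseudocounts, filters and scalings were tried. The 2 further sheets of the table were not used, and no sequence was analysed here, so a planned search of promoters for motifs was not run.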

Additional observations from a re-analysis of the deposited data

Results flagged for a closer look

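Mouse Ppargc1a is listed as a row of its own beside the rabbit genes and enters no comparison of the report. It stood at 12.8 FPKM in the transgenic library and at 0 in both non-transgenic libraries, so it has a signal above that of the controls. Whether fragments of the mouse sequence could also count toward the rabbit gene PPARGC1A, at 1.18, 1.76 and 2.29 FPKM, was not tested. With 1 library per group no sample could be compared with others of its group.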

How the results depend on the processing

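No paired analysis was possible because there is 1 library per group, and for the same reason no library could be left out. Over the 8 alternatives, 346 of 366 list medians and 11 of 16 counts moved by less than 1.5 times (0.585 on the log2 scale), as did, under other pseudocounts and scalings, 1755 of 1985 values of named genes, and no called value changed its sign. The counts of genes higher and lower were 1750 and 424 with a pseudocount of 0.1, 817 and 138 with 5, 1520 and 335 with no filter, 1038 and 193 with a mean of at least 5 FPKM, 1293 and 246 without rows listed at 0, 1737 and 195 with each library scaled to the same sum, 1908 and 165 with that scaling after leaving out mitochondrial DNA genes, and 1431 and 307 with median ratio scaling. The share of higher genes among the calls ran from 80.5% to 92.0% (83.3% in the report). With a pseudocount of 0.1 the medians of the myeloid (4.69), neutrophil (5.98), antigen presentation (2.29), chemokine (2.52), NADPH oxidase (4.39) and mitosis (2.67) lists moved. With 5 those of the macrophage (3.05), myeloid (2.12), neutrophil (1.16), antigen presentation (1.05), chemokine (0.65), cytokine (0.75), NADPH oxidase (2.06) and mitosis (0.44) lists did. With no filter, where more genes enter a list, the neutrophil (0.41), erythroid (0.20) and NADPH oxidase (0.54) lists moved, and with a mean of at least 5 FPKM the T and B cell (3.06), neutrophil (4.69) and antigen presentation (2.25) lists, from which genes are then left out. Scaling to the same sum shifted the median of all genes to 0.18, and to 0.27 without mitochondrial DNA genes. In each case list medians near 0 cross it: those of proteoglycans, TGF-beta and BMP, PGC-1alpha partners, calcification, autophagy and ribosomal proteins turn from below to above 0. Keeping a mean of at least 5 FPKM put protease and inhibitor genes at -0.04 and growth factors at -0.03, and leaving out rows listed at 0 put calcification at 0.03. List shares of a library were within 1.5 times when mitochondrial DNA genes were left out of the whole, an alternative chosen after seeing the data. The depth is unknown, so low genes carry a counting error that could not be given.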

Other observations

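Several groups of genes outside the lists, all named after their values were seen, differed from chow in the transgenic library. The neurotrophins NTF3, at 39.2, 11.5 and 12.4 FPKM, and BDNF, at 39.9, 16.4 and 17.7, were lower. Both were about equally low in both cholesterol libraries. The LIM protein FHL1 was at 1557, 557 and 613 FPKM, the adhesion molecule MCAM at 1130.4, 457 and 498 and the integrin chain ITGA7 at 219, 73.8 and 105, also below chow in both. NR1D1, the clock repressor REV-ERB alpha, stood at 76.1, 27.2 and 29.6 FPKM and the clock activator ARNTL at 5.60, 2.62 and 1.87, while PER1 was at 25.8, 13.2 and 26.2 FPKM. PYGM, the muscle glycogen phosphorylase, was at 69.2, 16.9 and 26.4 FPKM, and the natriuretic peptide receptor NPR1 at 209, 66.4 and 97.6.

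Other genes outside the lists stood above chow in both cholesterol libraries. The osteoclast lectin SIGLEC15 stood at 0.362, 81.8 and 62.02 FPKM, the acyloxyacyl hydrolase AOAH, which inactivates endotoxin, at 1.02, 63.8 and 80.8 and the folate receptor FOLR2 at 1.23, 36.3 and 44.6. AOAH and FOLR2 were highest in the transgenic library. CD22, a sialic acid binding lectin, was at 0.0284, 33.9 and 31.4 FPKM and the actin capping protein CAPG at 4.19, 193 and 161. The acute phase protein SAA3 stood at 7.14, 389 and 66.03 FPKM and ANKRD1, an ankyrin repeat protein of stressed muscle, at 0.0355, 59.2 and 23.1. These last 2 lay above chow in the transgenic library and below the non-transgenic cholesterol library.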
